A study of Homo sapiens with 12 samples.

Results

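The response to abemaciclib in cells that lacked *RB1* was measured by RNA sequencing in 6 of the 12 libraries of the series: 3 *RB1*-knockout libraries treated with abemaciclib and 3 treated with the solvent DMSO. The cells were ZR-75-1, an established oestrogen receptor-positive human breast cancer line, edited by CRISPR with a single guide RNA against *RB1* (sgRB1) or with a non-targeting guide (sgControl). The knockout cells received 500 nM abemaciclib or DMSO for 5 days, and the sgControl cells, which retained *RB1* and served here as the comparison, received the same. The sources used here do not state how many clones stood behind each genotype, so the results describe these edited cells and not *RB1* loss in general. The comparison was set by the 6 libraries alone, and every gene with adequate counts was tested: 18546 of the 60612 gene rows passed the independent filter of the test. The gene lists were chosen with earlier results of these data known, and some genes were picked after their values were seen.

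Abemaciclib inhibits the cyclin-dependent kinases CDK4 and CDK6, which phosphorylate the retinoblastoma protein Rb. Unphosphorylated Rb binds E2F transcription factors and holds cells before DNA replication, a route that cells without Rb do not have. Abemaciclib is also known to inhibit other kinases and, as a weak base, to accumulate in acidic lysosomes, whose genes are read by the MiT/TFE transcription factors, and genes of the immediate early class are switched on within minutes of growth factor or stress signals without new protein synthesis.

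The 6 knockout libraries held between 39907318 and 54092121 counts assigned to genes, against 39907318 to 81636393 over all 12. *RB1* itself had between 29 and 63 counts in each knockout library. The abemaciclib library of replicate 1 stood apart from the other two of its group: the chi-square per gene between it and replicates 2 and 3 was 17.9 and 15.8, against 5.5 between those replicates, 3.49 to 5.58 among the DMSO libraries and 51.4 to 90.2 between treatments. Mitochondrially encoded genes took 7.39% of its counts and 5.44 to 5.56% in the other two, against 3.78 to 4.13% in DMSO. Counts of genes given below were therefore also made without that library. Luminal epithelial markers were detected in full, with a summed level of 873175.8 to 949401.5 normalized counts in DMSO and 992454.4 to 1051469.9 in abemaciclib. The summed level of the 9 leukocyte markers was 30.7 to 45.1 in DMSO and 36.2 to 48.4 in abemaciclib, with *CD3E*, *CD3D*, *MS4A1* and *NKG7* among those at 0 in both. The 9 fibroblast markers summed to 1905.9 to 2072.4 in DMSO and 2597.3 to 2706 in abemaciclib. Only 1 of them had a mean of at least 100 normalized counts, and *COL1A1* alone averaged 1940.2 in DMSO and 2611.1 in abemaciclib. In DMSO 5 of the 9 were at 0, and *COL3A1* and *FAP* were at 0 in both treatments. The endothelial markers summed to 708.4 to 715.1 and 664.7 to 718.1, and the basal epithelial markers to 1510.8 to 1646 and 1289.1 to 1378.2. In bulk samples a fall in the number of cells of a kind and a fall in RNA per cell cannot be told apart.

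Without *RB1*, abemaciclib raised 2771 genes, 14.9% of the 18546 tested, and lowered 2800, 15.1% (DESeq2, adjusted p under 0.05). Most changes were small: the median absolute log2 fold change of a called gene was 0.378, and the median over all tested genes was 0.0168. The large changes leaned upwards, with 557 genes raised and 148 lowered at least 2-fold. Of these, 170 and 56 had a mean of at least 100 normalized counts in the knockout libraries, and of the 150 raised and 38 lowered at least 4-fold only 18 and 5 did. Among protein-coding genes 2417 of 13809 rose and 2652 fell, with a median of −0.01. Among long non-coding RNAs 120 of 1031 rose and 48 fell, with a median of 0.22. Of the 5571 called genes 5513 had no overlap between the DMSO and abemaciclib libraries of the knockout. Genes named by rule for the size of their change had to meet this, so it is no added support for them. Normalized counts below are counts divided by the size factor of the library, and fold changes are on the log2 scale with their standard error.

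**Figure D1:**
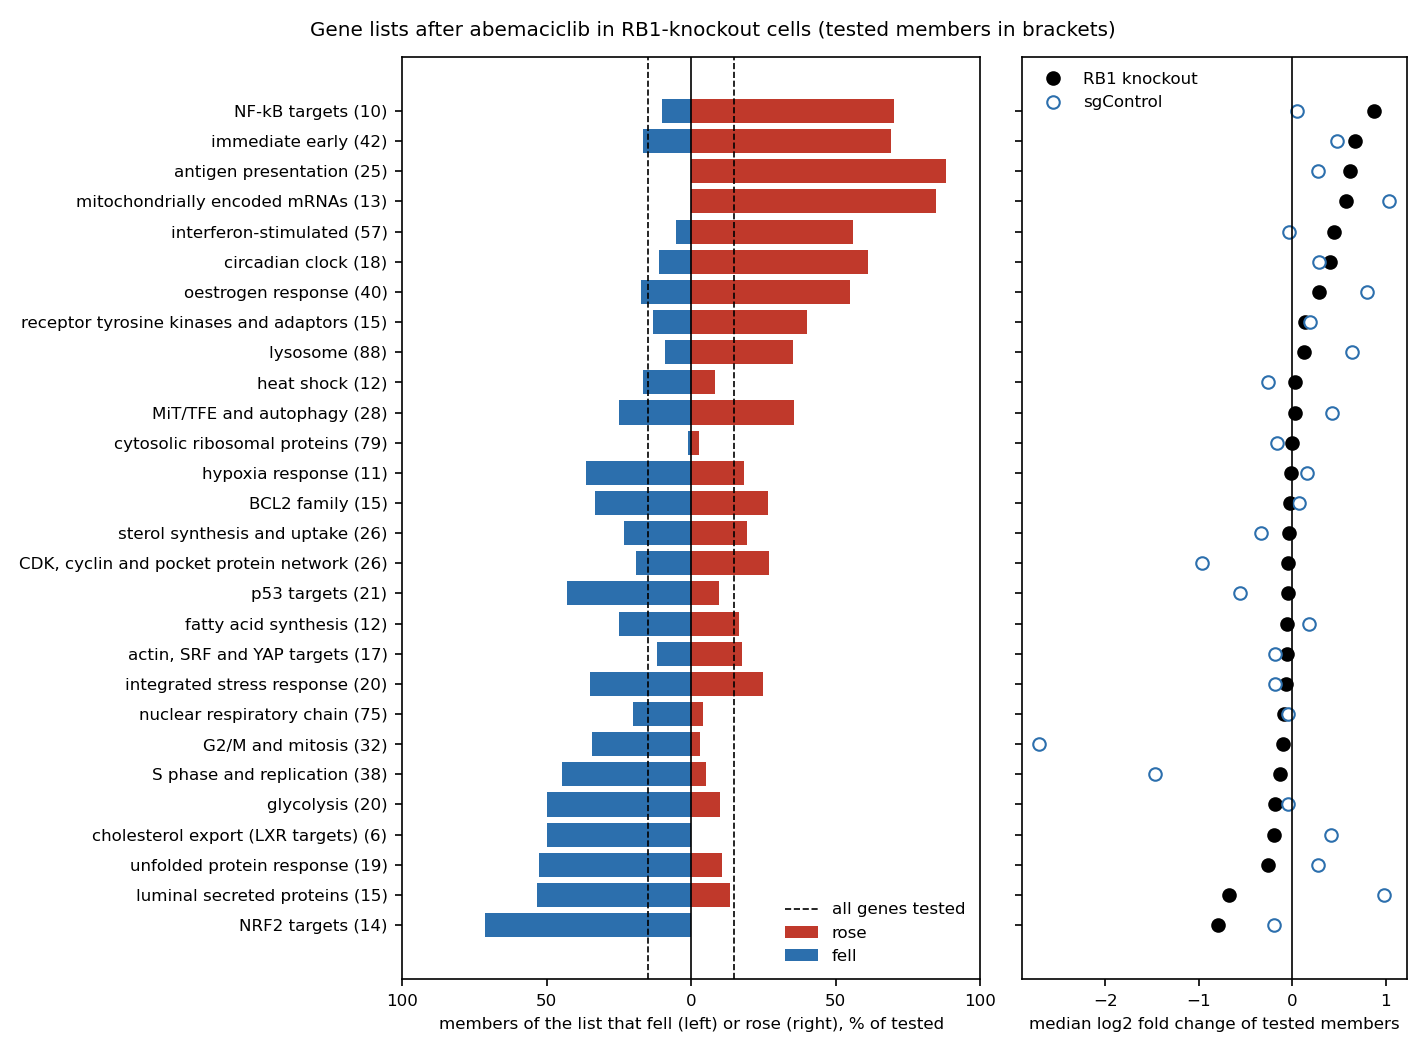
Left panel, the percentage of tested members of each gene list that rose (red, to the right) or fell (blue, to the left) with abemaciclib in *RB1*-knockout cells, with dashed lines at the percentages over all tested genes (14.9% and 15.1%); right panel, the median log2 fold change of the tested members in knockout (filled) and sgControl (open) cells. Antigen presentation genes had the highest share of rises (88%) and NRF2 targets the highest share of falls (71.4%).

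Immediate early genes included the largest increases among genes with a mean of at least 100 normalized counts and no overlap between DMSO and abemaciclib. Of the 42 tested, 29 rose and 7 fell, with a median log2 fold change of 0.67 beside 0.0168 over all genes, and 28 rose without abemaciclib replicate 1. The AP-1 subunits, which pair to form a dimeric transcription factor, rose in 7 of 8 cases with a median of 0.89. The other transcription factors rose in 10 of 16 cases and the feedback inhibitors and mRNA decay factors in 12 of 18. *EGR1*, a zinc finger transcription factor on chromosome 5 (GRCh38, positions 138465479 to 138469303), is shown with its promoter because it had the highest fold change among called genes with a mean of at least 100 normalized counts and no overlap between groups. The promoter of *DUSP1*, the feedback phosphatase with the largest increase, stands beside it. Both are RefSeq GRCh38.p14 sequences that run from 250 bases before the start site to 50 after it. Capitals mark matches to the CArG box (CC, 6 of A or T, GG) in *EGR1* (chr5:138465229-138465528, plus strand) and to TGACGTCA in *DUSP1* (chr5:172771146-172771445, minus strand).
EGR1: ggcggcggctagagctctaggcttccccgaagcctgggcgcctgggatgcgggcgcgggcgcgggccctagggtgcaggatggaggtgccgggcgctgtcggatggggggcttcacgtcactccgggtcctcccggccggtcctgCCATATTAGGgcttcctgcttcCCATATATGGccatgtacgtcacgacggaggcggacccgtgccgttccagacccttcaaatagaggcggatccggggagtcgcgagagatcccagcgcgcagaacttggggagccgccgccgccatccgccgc
DUSP1: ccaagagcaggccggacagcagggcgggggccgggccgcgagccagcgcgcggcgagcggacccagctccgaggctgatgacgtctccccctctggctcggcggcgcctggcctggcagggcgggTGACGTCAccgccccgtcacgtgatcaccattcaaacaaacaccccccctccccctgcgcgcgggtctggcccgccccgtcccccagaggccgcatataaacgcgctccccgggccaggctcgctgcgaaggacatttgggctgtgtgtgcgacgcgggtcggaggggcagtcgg
The CArG box was found on either strand in 2 of the 26 immediate early promoters available for members with at least 100 counts, *EGR1*, which rose, and *SRF*, which fell (−0.17 ± 0.06), and in 1.3% of 27305 promoters. Of the 26 genes 22 rose and 1 fell. TGACGTCA was found in 2 of the 26, *JUND* and *DUSP1*, which both rose, and in 2.0% of all promoters.

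*EGR1* stood at 1608, 1719.9 and 1431.2 normalized counts in the DMSO libraries and at 30405.6, 27294.3 and 28451.7 in abemaciclib. The groups were far apart, and the 18.1-fold increase gave a log2 fold change of 4.18 ± 0.24 (DESeq2 adjusted p = 2.07e-67). *FOS*, the AP-1 subunit of the classic serum response, moved from 293.7, 283.2 and 227.4 to 4212.8, 4375.9 and 4652, a log2 fold change of 4.04 ± 0.34 (DESeq2 adjusted p = 1.72e-30). Every abemaciclib library again lay above every DMSO library, which the naming rule required. *JUN*, the main partner of FOS, rose by 2.75 ± 0.13 and *FOSB* by 3.18 ± 0.21. *EGR2* rose by 3.70 ± 0.43 from 6.8 to 9.1 counts in DMSO. *DUSP1*, which dephosphorylates MAP kinases, moved from 817, 793.3 and 777.6 to 4409.8, 4672.8 and 4591.5, a log2 fold change of 2.52 ± 0.13 (DESeq2 adjusted p = 1.41e-82). *ZFP36*, which marks AU-rich mRNAs for decay, rose by 1.32 ± 0.09. *ATF3*, a stress-induced AP-1 family factor, rose by 0.85 ± 0.10.

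The list did not move as a block. *DUSP4*, a nuclear phosphatase of MAP kinases, fell from 15609, 15685.8 and 15105.9 to 4450.6, 4200 and 4361.5 normalized counts, a log2 fold change of −1.83 ± 0.05 (DESeq2 adjusted p = 7.86e-254), so that both of these phosphatases of the same enzyme family moved in opposite directions without overlap between groups. *FOSL1*, another AP-1 subunit, fell by 0.71 ± 0.11 on the log2 scale, and *IER3*, an early response gene linked to survival, fell by 0.60 ± 0.09. Among matricellular genes read by SRF and YAP, *CCN1* rose by 1.18 ± 0.11 and *CCN2* by 1.52 ± 0.18. *CCN2* moved from 142.1, 119 and 150.1 to 383.9, 348.5 and 444.8 counts. Of the 17 tested actin, SRF and YAP targets 3 rose (17.6%) and 2 fell (11.8%), near the 14.9% and 15.1% of all tested genes. The number of falls was 1 to 3 when single libraries were left out.

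With *RB1* present, 25% of 22723 genes rose and 24.8% fell, and 22 of the 42 immediate early genes rose and 14 fell. *EGR1* rose there by 2.49 and the difference between the responses was 1.69 ± 0.33 (DESeq2 interaction adjusted p = 2.24e-06). *JUN* rose by 2.11 with *RB1*, with an interaction of 0.64 (adjusted p = 0.00119). *DUSP1* rose more with *RB1* (3.26; interaction −0.74, adjusted p = 0.00017). *FOS* rose by 3.21 with *RB1*, and its interaction of 0.83 missed the threshold (adjusted p = 0.16), although it passed without the sgControl DMSO library of replicate 1 (1.15, adjusted p = 0.000679). *DUSP4*, by contrast, changed by 0.19 with *RB1* (interaction −2.02, adjusted p = 9.93e-159), and *CCN2* fell by 2.67 there (interaction 4.19, adjusted p = 3.02e-34). The interaction uses the same knockout libraries as the response itself.

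**Figure D2:**
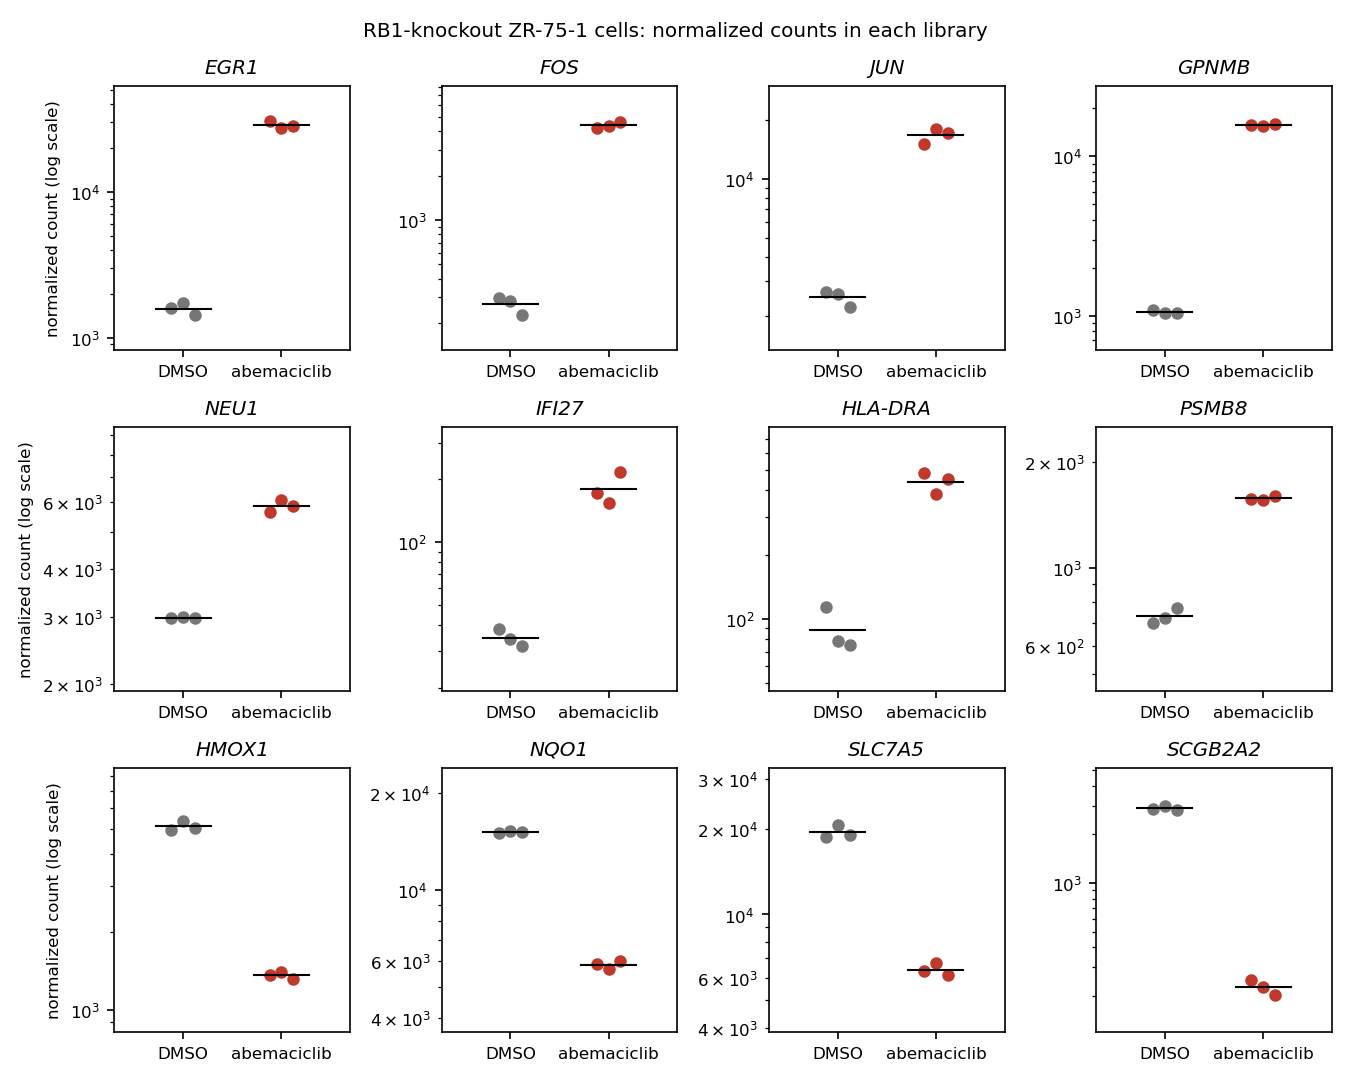
Normalized counts (log axis) of 12 genes in each *RB1*-knockout library, DMSO in grey and abemaciclib in red; each point is a library and each line a group mean. Every gene shown separated the 3 abemaciclib from the 3 DMSO libraries of the knockout without overlap, which the naming rule required of all but *PSMB8*. *EGR1* stood at 1431.2 to 1719.9 against 27294.3 to 30405.6.

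Lysosomal genes rose in smaller steps. Of 88 tested members 31 rose and 8 fell, with a median log2 fold change of 0.13, and 29 rose without abemaciclib replicate 1. Without abemaciclib replicate 2 the falls numbered 5. Hydrolases, which digest the cargo, rose in 17 of 47 cases and fell in 6, and membrane proteins and activators rose in 13 of 26 cases and fell in 2. Of the 15 subunits of the V-ATPase, the proton pump that acidifies the organelle, 1 rose and none fell (*ATP6V1H*, 0.19 ± 0.07, DESeq2 adjusted p = 0.0234). That call was lost without replicate 1 or 2 of either knockout group (adjusted p = 0.068 to 0.112). Over the 19 alternative settings 28 to 43 members of the whole list rose.

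The E-box TCACGTGA is the palindromic form bound by MiT/TFE factors. It was found in 10 of the 61 lysosomal promoters available, 16.4%, and in 1.0% of 27305 promoters, and 5 of those 10 genes rose and none fell, against 23 that rose and 7 that fell among all 61. No promoter of the 25 regulators and autophagy genes held it. The promoters of *IGF2R* (chr6:159968832-159969131, plus strand) and *GAA* (chr17:80101331-80101630, plus strand), RefSeq GRCh38.p14, are shown as members that rose and hold more than 1 copy, in capitals.
IGF2R: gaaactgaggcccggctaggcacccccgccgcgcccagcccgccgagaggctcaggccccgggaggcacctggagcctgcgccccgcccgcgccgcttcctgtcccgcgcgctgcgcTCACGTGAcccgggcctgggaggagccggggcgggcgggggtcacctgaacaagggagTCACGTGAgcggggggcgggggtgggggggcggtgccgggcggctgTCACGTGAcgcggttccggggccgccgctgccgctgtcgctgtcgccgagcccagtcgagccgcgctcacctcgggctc
GAA: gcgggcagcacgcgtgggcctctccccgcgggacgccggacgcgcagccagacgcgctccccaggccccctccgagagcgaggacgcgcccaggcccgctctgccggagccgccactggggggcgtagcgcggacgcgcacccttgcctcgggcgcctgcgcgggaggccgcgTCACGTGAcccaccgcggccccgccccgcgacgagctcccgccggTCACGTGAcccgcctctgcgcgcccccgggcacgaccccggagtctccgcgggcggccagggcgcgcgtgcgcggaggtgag
*IGF2R*, the receptor that carries mannose-6-phosphate-tagged hydrolases to the lysosome, rose by 0.47 ± 0.10 (DESeq2 adjusted p = 1.1e-05). *GAA*, the acid glucosidase that breaks down glycogen, moved from 10653.8, 11167.5 and 10463.2 to 13585.1, 13719.3 and 13305.4, a log2 fold change of 0.33 ± 0.06.

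*NEU1*, the lysosomal sialidase (chromosome 6, positions 31857659 to 31862905), was the hydrolase above 100 counts that rose most. Its levels were 2975.6, 2994.6 and 2983 in DMSO and 5648.7, 6076.3 and 5847.3 in abemaciclib, a 1.96-fold increase with a log2 fold change of 0.97 ± 0.07 (DESeq2 adjusted p = 9.44e-39). *NPC2*, which hands cholesterol out of the lysosome, rose by 0.80 ± 0.11, *SGSH*, a heparan sulphatase, by 0.56 ± 0.06, and *LAMP2*, a membrane protein of the organelle, by 0.46 ± 0.06. *CTSS*, a cathepsin of antigen-processing cells, rose by 2.61 ± 0.46 from no more than 17.6 counts. *CTSD*, the aspartic cathepsin, stood at 83158.9, 96778 and 85242.3 against 92624.5, 77809.3 and 80888.6, and these groups overlapped (−0.08 ± 0.13, DESeq2 adjusted p = 0.709).

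Other lysosomal genes fell beyond the spread of the libraries. *PPT1*, which removes palmitate from proteins, fell from 26914.5, 27160.7 and 27432.3 to 15523.9, 14867 and 16247.7, a log2 fold change of −0.81 ± 0.06 (DESeq2 adjusted p = 1.41e-37). *ACP2*, an acid phosphatase, fell by 0.58 ± 0.05 and *SLC29A3*, a nucleoside exporter, by 0.91 ± 0.14. All 3 rose with *RB1*, by 0.36, 0.71 and 0.76. Their interactions were −1.17, −1.30 and −1.67 (DESeq2 adjusted p = 1.22e-40, 7.87e-68 and 4.42e-18). With *RB1*, 67 of the 88 lysosomal genes rose and 5 fell, with a median of 0.64, and the interaction was lower without *RB1* for 61 and higher for 7. Over all genes the interaction was higher for 21.1% and lower for 20.3% of 20932. *NEU1* rose by 1.83 with *RB1* (interaction −0.86, adjusted p = 4.27e-16).

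Of the 9 tested MiT/TFE factors, regulators and responsive genes 7 rose and none fell, with a median of 0.72. *GPNMB*, a membrane glycoprotein that responds to lysosomal stress (chromosome 7, positions 23235967 to 23275108), moved from 1084.8, 1042.3 and 1039 to 15660.9, 15434.5 and 16083.3, a 14.9-fold increase with a log2 fold change of 3.90 ± 0.06. The replicates were tight, and its increase with *RB1* was 2.03 (interaction 1.87, DESeq2 adjusted p = 4.36e-61). *RRAGD*, a Rag GTPase that recruits mTORC1 to the lysosome, rose by 1.31 ± 0.07 (with *RB1* 0.64; interaction 0.66, adjusted p = 4.27e-12). *FLCN*, the GTPase-activating protein for RagC and RagD, rose by 1.03 ± 0.10, and its partners *FNIP1* and *FNIP2* by 0.85 ± 0.09 and 0.72 ± 0.11. The transcription factors were close to their starting levels: *TFE3* rose by 0.20 ± 0.05 (DESeq2 adjusted p = 0.000572), while *TFEB* changed by −0.12 (adjusted p = 0.642) and *MITF* by −0.13 (adjusted p = 0.561).

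Of the 19 tested autophagy genes 7 fell and 3 rose. *OPTN*, an autophagy receptor, moved from 584.7, 552 and 508.2 to 1536.8, 1339.3 and 1457.5, a log2 fold change of 1.40 ± 0.08. Its increase with *RB1* was 1.45, within the margin of 0.5 (DESeq2 equivalence adjusted p = 0.000791). *GABARAPL1*, which encodes an ATG8 protein of the autophagosome membrane, fell from 866.2, 886.9 and 903.8 to 406.6, 413.8 and 457.9, a log2 fold change of −1.05 ± 0.08. It rose by 1.61 with *RB1* (interaction −2.66, adjusted p = 6.29e-122). *SQSTM1*, the receptor p62, changed by −0.08 ± 0.08 (adjusted p = 0.459).

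**Figure D3:**
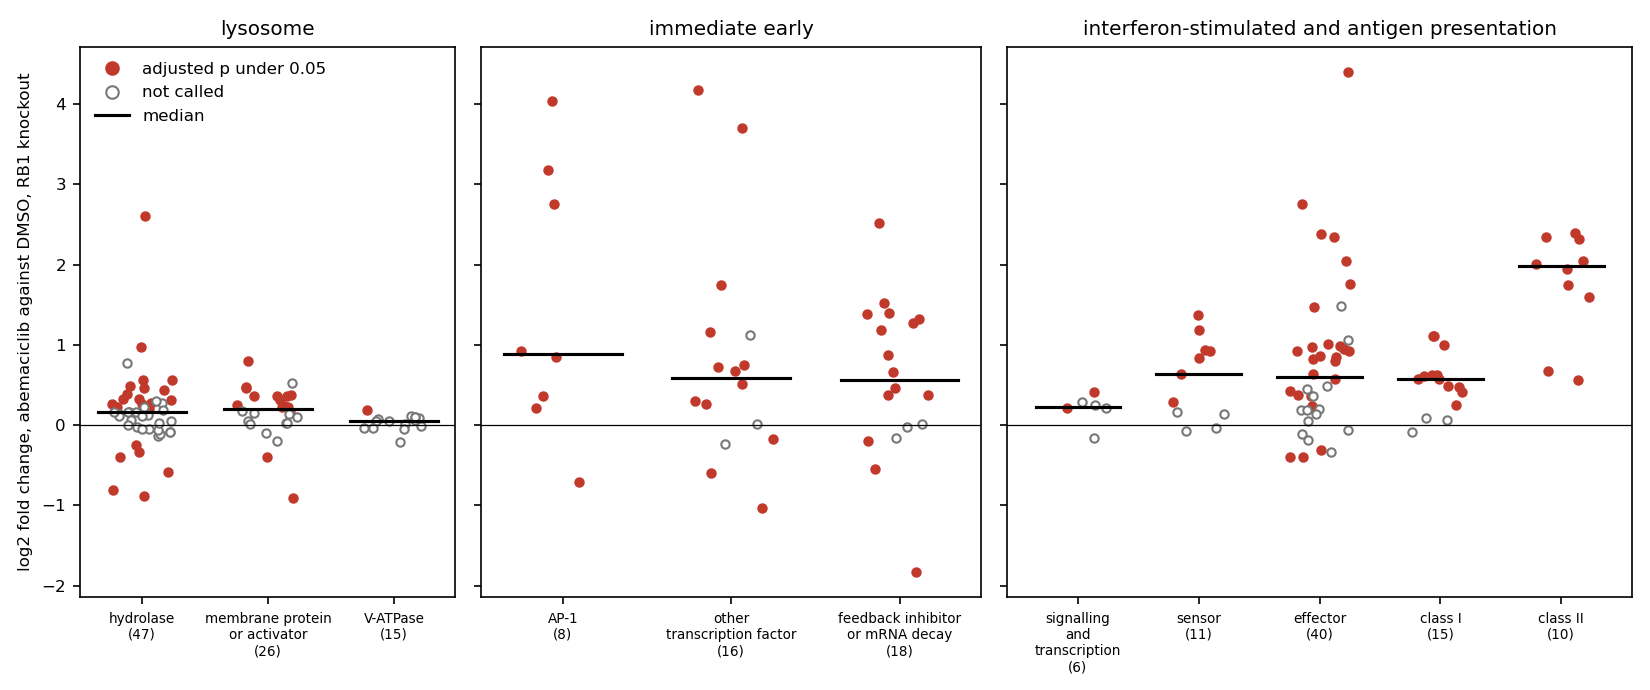
Log2 fold change of abemaciclib against DMSO in *RB1*-knockout cells for each tested member of the lysosome, immediate early, interferon-stimulated and antigen presentation lists, by role; filled points passed the threshold, open points did not, and lines are medians. V-ATPase subunits lie between −0.21 and 0.19, the class II antigen presentation genes between 0.56 and 2.40, and the AP-1 subunits between −0.71 and 4.04.

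Interferon-stimulated genes rose in the knockout. Of 57 tested members 32 rose and 3 fell, with a median log2 fold change of 0.45, and 25 rose without abemaciclib replicate 1. The effectors rose in 23 of 40 cases and fell in 3, the nucleic acid sensors rose in 7 of 11 and none fell, and of the 6 signalling and transcription genes 2 rose. GAAANNGAA, the core shared by binding sites of interferon-regulatory factors, was present in 19 of the 32 available promoters of the list, 59.4%, and in 8.3% of all 27305, and 14 of the 19 genes rose and 1 fell, against 19 and 3 of the 32. The promoters of *ISG15* (chr1:1013247-1013546, plus strand) and *DDX60* (chr4:168318703-168319002, minus strand), RefSeq GRCh38.p14, are shown with the matches in capitals, as an effector and a sensor that rose. The 3 matches in *ISG15* overlap.
ISG15: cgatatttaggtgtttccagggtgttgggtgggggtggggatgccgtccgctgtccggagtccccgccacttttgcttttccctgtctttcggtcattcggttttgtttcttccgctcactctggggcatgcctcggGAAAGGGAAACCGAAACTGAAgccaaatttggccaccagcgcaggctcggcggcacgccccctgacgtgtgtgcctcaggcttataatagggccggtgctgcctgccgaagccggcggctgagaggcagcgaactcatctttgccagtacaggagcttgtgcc
DDX60: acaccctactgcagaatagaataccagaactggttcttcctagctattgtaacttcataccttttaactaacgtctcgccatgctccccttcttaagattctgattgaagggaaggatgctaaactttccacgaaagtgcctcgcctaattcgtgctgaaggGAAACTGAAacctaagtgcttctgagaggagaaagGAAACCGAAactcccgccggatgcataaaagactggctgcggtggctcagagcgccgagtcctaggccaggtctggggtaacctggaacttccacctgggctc

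*ISG15*, a ubiquitin-like modifier, stood at 154.4, 159.8 and 121.6 in DMSO and 269.5, 241.1 and 258.2 in abemaciclib, a log2 fold change of 0.82 ± 0.16 (DESeq2 adjusted p = 5.22e-06). *UBE2L6*, its conjugating enzyme, moved from 86.1, 116.8 and 112.5 to 342, 335.9 and 396.4, 1.76 ± 0.18 on the log2 scale. *OAS1*, which makes the second messenger that activates RNase L, rose by 1.37 ± 0.15. These groups did not overlap, which the naming rule required of *UBE2L6* and *OAS1*. *DDX60*, a helicase that acts with RIG-I, rose by 0.92 ± 0.18 and *DDX58*, which encodes RIG-I, by 0.94 ± 0.11. *DTX3L*, an E3 ligase that acts with the ADP-ribosyltransferase PARP9, rose by 1.01 ± 0.09. *IFI27* moved from 38.3, 34.2 and 31.8 to 172.1, 153.7 and 215.9, a log2 fold change of 2.38 ± 0.27. *RSAD2*, the antiviral enzyme viperin, went from 1.4, 2.2 and 2.3 to 43, 39 and 43.4, and its fitted fold change rests on few counts in DMSO.

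The pathway above these genes moved little. *IRF2*, a repressor of the interferon-regulatory factor family, rose by 0.41 ± 0.07. *IRF9*, a DNA-binding subunit of the complex that type I interferon activates, had between 3.4 and 17.1 normalized counts and overlapped between groups (DESeq2 adjusted p = 0.811). The receptor subunits other than *IL10RB* changed by −0.03 to 0.09 on the log2 scale, with adjusted p of 0.7231 for *IFNAR1*, 0.6351 for *IFNAR2*, 0.6445 for *IFNGR1*, 0.4163 for *IFNGR2* and 0.9419 for *IFNLR1*. *IL10RB*, a subunit of the type III receptor with few counts, changed by 0.24 ± 0.40 (DESeq2 adjusted p = 0.7222). The ligand genes were near or at 0: *IFNG* had at most 2 and *IFNE* at most 1 count in any knockout library, and *IFNL1* had 0 in all 6. At this depth a change in these ligands was not detectable.

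With *RB1*, 18 interferon-stimulated genes rose and 19 fell of 61 tested, with a median of −0.04. The interaction was higher without *RB1* for 30 and lower for 6. *UBE2L6* changed by −0.14 there (interaction 1.90, DESeq2 adjusted p = 1.26e-09) and *DTX3L* by −0.12 (interaction 1.13, adjusted p = 3.66e-17). *OAS1* rose by 1.02 with *RB1*, and neither the interaction (adjusted p = 0.253) nor the equivalence test (adjusted p = 0.486) passed for it.

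Antigen presentation was the list with the highest share of rises. Of 25 tested members 22 rose and none fell, with a median of 0.62, and 20 rose without abemaciclib replicate 1. All 10 tested class II genes rose, with a median of 1.98. *HLA-DRA*, the invariant alpha chain of HLA-DR (chromosome 6, positions 32439878 to 32445046), moved from 113.4, 78.2 and 75 to 482.4, 385.4 and 451.9, a log2 fold change of 2.32 ± 0.21 (DESeq2 adjusted p = 1.28e-26). *CD74*, the chaperone that fills the class II groove, moved from 236.4, 272.1 and 283.1 to 1199.3, 1054 and 933 (2.01 ± 0.14). *CIITA*, the master coactivator of class II genes, moved from 46.5, 39.7 and 46.6 to 131.4, 145.3 and 125.1 (1.60 ± 0.26). No abemaciclib value lay within the DMSO range for these genes, which the naming rule required of *HLA-DRA* and *CD74*. HLA genes are near-identical copies of each other, so reads could be shared among them. None of the 9 leukocyte markers above had a mean of 100 normalized counts, and the source of the class II transcripts was not tested.

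Class I genes rose in 12 of 15 cases, with a median of 0.58. *NLRC5*, the coactivator of class I genes, rose by 1.11 ± 0.15 and *B2M*, the light chain, by 0.62 ± 0.09. The catalytic subunits of the immunoproteasome, which replace those of the standard proteasome and favour peptides for class I, rose: *PSMB8* moved from 699.5, 723.9 and 770.8 to 1566.2, 1557.2 and 1603.8 (1.11 ± 0.10, adjusted p = 6.83e-28), *PSMB9* by 0.58 ± 0.13 and *PSMB10* by 0.58 ± 0.12. The activator subunits *PSME1* and *PSME2* rose by 0.37 ± 0.10 and 0.35 ± 0.10. With *RB1*, 10 of 26 antigen presentation genes rose and 4 fell, and the interaction was higher without *RB1* for 12 and lower for 5. *HLA-DRA* and *CD74* had few counts with *RB1*, with means of 3.8 and 4.8 in DMSO and 5.2 and 7.7 in abemaciclib. In knockout DMSO their means were 88.9 and 263.9. Their interactions of 1.78 and 1.26 (DESeq2 adjusted p = 0.00944 and 0.0273) rest on these few counts. Both missed the threshold with edgeR (interaction adjusted p = 0.0563 and 0.0613). *HLA-DRB1*, a beta chain of HLA-DR, rose by 1.75 ± 0.17 without *RB1* and by 3.39 with it. *PSMB8* and *PSMB9* fell by 0.47 and 1.95 with *RB1* (interactions 1.58 and 2.53, DESeq2 adjusted p = 1.01e-25 and 7.41e-32).

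The standard proteasome moved the other way. Of 31 tested constitutive subunits, a group chosen after the values were seen, 25 fell and none rose, with log2 fold changes from −0.64 to 0.08 and a median of −0.29. The 3 standard catalytic subunits that the immunoproteasome subunits replace were among them: *PSMB5* changed by −0.27, *PSMB6* by −0.64 and *PSMB7* by −0.32.

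**Figure D4:**
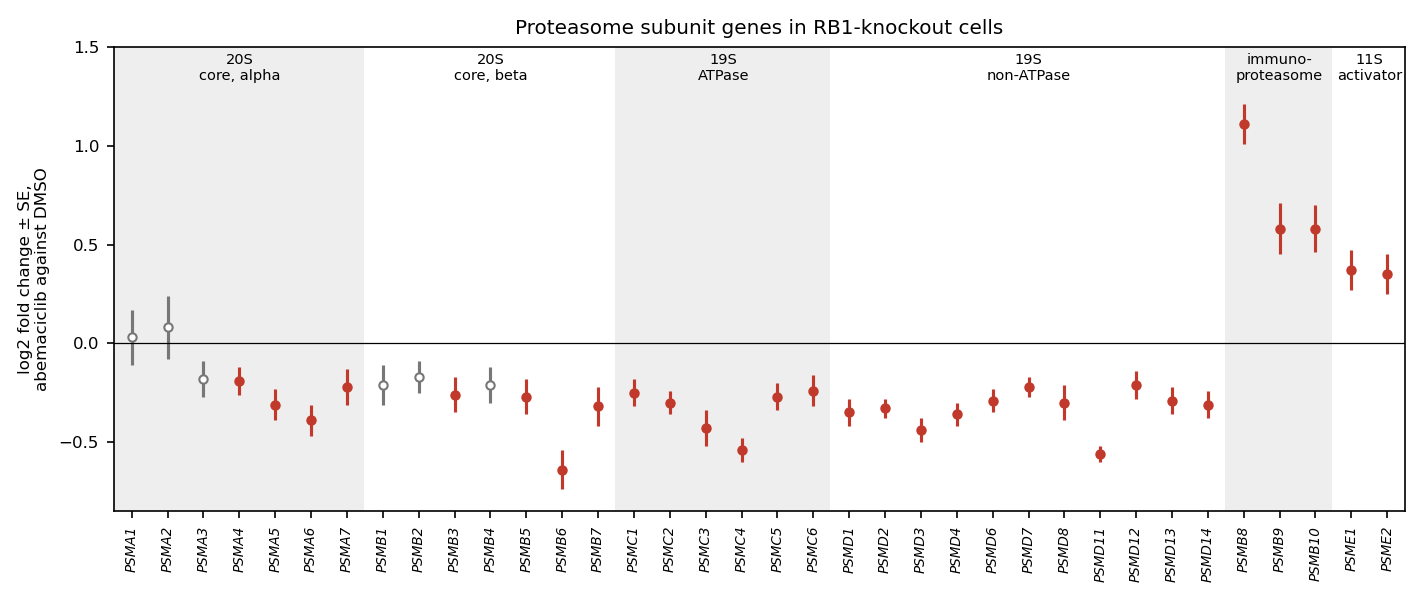
Log2 fold change of abemaciclib against DMSO in *RB1*-knockout cells (bars are standard errors) for proteasome subunits by class. The immunoproteasome subunits and the activator *PSME1* and *PSME2* lie above 0, from 0.35 to 1.11, and the 31 constitutive subunits lie between −0.64 and 0.08.

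NF-kB targets rose in 7 of 10 cases and 1 fell, with a median of 0.87, and the count of rises was the same without abemaciclib replicate 1. *RELB*, the activating subunit of the non-canonical pathway, moved from 621.6, 603.8 and 663.9 to 1489.2, 1448.8 and 1426.3, a log2 fold change of 1.21 ± 0.10 (DESeq2 adjusted p = 6.01e-30), and its precursor partner *NFKB2* rose by 0.49 ± 0.06. *NFKBIA*, the inhibitor made in response to the pathway, rose by 0.73 ± 0.08, *IL32* by 1.45 ± 0.19 and *ICAM1*, an adhesion molecule, by 1.86 ± 0.23. Of the list, *SOD2*, the mitochondrial superoxide dismutase, was the one that fell (−0.17), a call lost without abemaciclib replicate 3. *CXCL12*, a chemokine that oestrogen induces, moved from 138, 158.7 and 138.7 to 715.7, 646.5 and 654.6 (2.21 ± 0.14). It rose by 1.05 with *RB1* (interaction 1.16, adjusted p = 1.35e-08).

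Antioxidant and detoxifying genes read by the transcription factor NRF2 fell. Of 14 tested targets 10 fell and none rose, with a median of −0.79, and the same numbers held without abemaciclib replicate 1. *HMOX1*, which breaks down haem (chromosome 22, positions 35380361 to 35394214), moved from 4967.6, 5339.2 and 5028.1 to 1355.6, 1400.4 and 1314.3, a log2 fold change of −1.91 ± 0.09 (DESeq2 adjusted p = 5.36e-98). *NQO1*, a quinone reductase, moved from 15005.2, 15193.3 and 15104.8 to 5878.6, 5669.9 and 6014.7 (−1.37 ± 0.07). *ME1*, which supplies NADPH, fell by 1.14 ± 0.05 on the log2 scale and *TXNRD1*, thioredoxin reductase, by 0.99 ± 0.06. All of these groups were separate, which the naming rule required. With *RB1* 7 of 15 targets fell and 5 rose, with a median of −0.20, and the interaction was lower without *RB1* for 7 of 14 and higher for 3, while 4 were equivalent. *HMOX1* changed by −1.65 with *RB1* (interaction −0.26, adjusted p = 0.0924, but −0.36 and adjusted p = 0.000544 without sgControl DMSO replicate 1) and *ME1* by −1.02, equivalent within 0.5 (DESeq2 equivalence adjusted p = 6.78e-07).

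Genes of nutrient supply and stress moved in both directions. Glycolysis genes fell in 10 of 20 cases and rose in 2, and the falls numbered 6 without the DMSO library of replicate 2. *HK2*, a hexokinase, fell by 0.73 ± 0.10 and *SLC2A1*, the glucose transporter GLUT1, by 0.43 ± 0.06, while *ENO2*, an enolase, rose by 0.63 ± 0.05. Hypoxia response genes fell in 4 of 11 cases (36.4%) and rose in 2 (18.2%), beside 15.1% and 14.9% of all tested genes. *SLC7A5*, the large neutral amino acid transporter, moved from 18815.5, 20577.7 and 19082.4 to 6347.5, 6730.1 and 6126.7, a log2 fold change of −1.61 ± 0.07 (DESeq2 adjusted p = 6.41e-125). It fell further with *RB1* (−2.35; interaction 0.74, adjusted p = 8.67e-14). Its heavy chain *SLC3A2* fell by 0.22 ± 0.08. Of the 20 integrated stress response genes to which both belong, 5 rose and 7 fell, but 4 fell without the DMSO library of replicate 2, and 3 rose and 4 fell without abemaciclib replicate 3. Without the DMSO library of replicate 1 the rises numbered 3. *PPP1R15A*, the phosphatase subunit that ends the response, rose by 1.55 ± 0.15 and *DDIT4*, an inhibitor of mTORC1, by 0.89 ± 0.10, while *ATF4*, the transcription factor of the response, changed by −0.06 (DESeq2 adjusted p = 0.637).

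Chaperones of the endoplasmic reticulum fell. Of 19 unfolded protein response genes 10 fell and 2 rose, with a median of −0.26, and these counts held without abemaciclib replicate 1. *HSPA5*, the chaperone BiP, moved from 37359.2, 38651 and 36787.1 to 26150.9, 26088.8 and 25010.1, a log2 fold change of −0.55 ± 0.05 (DESeq2 adjusted p = 2.04e-21). *HERPUD1*, a component of protein degradation at that membrane, fell by 0.46 ± 0.08 and *MANF*, a secreted stress protein, by 0.44 ± 0.09. With *RB1* 13 of the 19 rose and 2 fell, *HSPA5* by 0.29 (interaction −0.84, adjusted p = 4.02e-26) and *HERPUD1* by 0.85 (interaction −1.31, adjusted p = 3.94e-33). Cytosolic heat shock genes rose in 1 of 12 cases (8.33%), *HSPA1B* (0.25 ± 0.06), and fell in 2 (16.7%), beside 14.9% and 15.1% of all tested genes. Without the sgControl DMSO libraries of replicates 1 or 3 the rises of that list numbered 4 and 3.

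The cell cycle genes changed little next to their fall with *RB1*, but not all were flat. Of 38 S phase genes 17 fell and 2 rose, with a median of −0.13, against 37 falls and a median of −1.47 with *RB1*. Of 32 mitotic genes 11 fell and 1 rose, with a median of −0.10, against 31 falls and −2.71, and 7 fell in the knockout without the DMSO library of replicate 2. With single libraries left out, 0 to 2 genes of each list rose. *RRM2*, a subunit of ribonucleotide reductase, moved from 8377.6, 8191.6 and 8468.1 to 5288.6, 5123.4 and 5477.1, a log2 fold change of −0.66 ± 0.05 (DESeq2 adjusted p = 1.92e-41), and fell by 8.21 with *RB1* (interaction 7.55). *CDC45*, of the replicative helicase, fell by 0.53 ± 0.07, and *ANLN*, of the cytokinetic ring, by 0.46 ± 0.09.

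Genes of the CDK and pocket protein network were called in both directions. Of 26 members 7 rose (26.9%) and 5 fell (19.2%), beside 14.9% and 15.1% of all tested genes. Without single libraries the rises numbered as few as 4 (DMSO replicate 2, abemaciclib replicate 2) and the falls 3 (DMSO replicate 3, abemaciclib replicate 1) to 8 (sgControl DMSO replicate 1). *CDK4*, the drug's target, rose by 0.39 ± 0.08 (DESeq2 adjusted p = 4.54e-06), *CCNE1*, a cyclin of CDK2, by 0.30 ± 0.06 and *CDKN2C*, an inhibitor of CDK4 and CDK6, by 0.39 ± 0.06. *E2F2* and *E2F8*, transcription factors of the cycle, each fell by 0.39, and *CDKN1A*, the inhibitor p21, fell by 0.35 ± 0.06. Of 21 p53 targets 9 fell and 2 rose, but 5 fell without any single DMSO library of the knockout or without abemaciclib replicate 1. Of those rises 1 was left without DMSO replicate 2 or abemaciclib replicate 1, and there were 4 without sgControl DMSO replicate 1.

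Oestrogen response genes rose in 22 of 40 cases and fell in 7, with a median of 0.29, against 33 rises and 4 falls and a median of 0.80 with *RB1*. *PGR*, the progesterone receptor, moved from 2923.7, 2881.1 and 2661.3 to 5663.5, 6194.2 and 5747.4 (1.06 ± 0.10) and rose less with *RB1* (0.30; interaction 0.76, DESeq2 adjusted p = 1.62e-06). *PRSS23*, a secreted protease, rose by 2.28 ± 0.21 and by 4.71 with *RB1* (interaction −2.43, adjusted p = 2.52e-19). The oestrogen receptor gene *ESR1* fell by 0.39 ± 0.10 in the knockout.

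Secreted proteins of luminal cells fell in 8 of 15 cases and rose in 2, with a median of −0.68, whereas 10 of 17 rose with *RB1*. *SERPINA1*, a protease inhibitor, rose most, from 509.6, 576.2 and 545.7 to 1819.9, 1529.9 and 1667.3 (1.62 ± 0.11). It rose by 5.07 with *RB1* (interaction −3.45, DESeq2 adjusted p = 1.01e-109). *SCGB2A2*, mammaglobin (chromosome 11, positions 62270158 to 62273160), had the largest fall of the genes named by rule, from 2847.2, 2995.7 and 2830.6 to 251.4, 225.3 and 203.8, a log2 fold change of −3.67 ± 0.15 (DESeq2 adjusted p = 6.72e-134). With *RB1* it changed by −0.22 (interaction −3.46, adjusted p = 3.43e-65). *SCGB1D2*, which binds mammaglobin, fell by 2.04 ± 0.20 and *AZGP1*, a secreted lipid-binding glycoprotein, by 1.55 ± 0.11. *MGP*, a matrix protein, fell by 1.20 ± 0.10 and *CLU*, the chaperone clusterin, by 0.70 ± 0.10, and both rose with *RB1*, by 4.32 and 2.93. The number of rises was 1 without any single knockout DMSO library and without abemaciclib replicate 1 or 2.

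Transcripts of the mitochondrial genome rose. Of the 13 mRNAs 11 rose and none fell, with a median of 0.57, and 9 rose without abemaciclib replicate 1. *MT-ND1*, a subunit of complex I, stood at 84613.9, 91412.4 and 82724.3 in DMSO and at 202788, 157040 and 145095 in abemaciclib (0.96 ± 0.13), with replicate 1 the highest. The nuclear genes of the respiratory chain did not follow: 3 of 75 rose (4%) and 15 fell (20%), with a median of −0.09. Of all tested genes 14.9% rose and 15.1% fell. The falls numbered 7 without DMSO replicate 2, 8 without abemaciclib replicate 2 and 31 without sgControl DMSO replicate 1. The rises numbered 5 without the last of these. *NDUFS6*, of complex I, fell by 0.41 ± 0.12. Cytosolic ribosomal protein genes stayed near 0, with 2 of 79 rising, 1 falling and a median of 0. Without sgControl DMSO replicate 1 those numbers were 9 and 7, and without replicate 3 of that group 4 and 3. No member fell without DMSO replicate 1. The mitochondrial share of counts, given above, moved with treatment. With size factors set by total counts without the mitochondrial genes, 3080 genes were higher and 2268 lower in the knockout, and 4964 of the 5571 calls were kept in the same direction.

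Circadian clock genes rose in 11 of 18 cases and fell in 2, with a median of 0.40. *PER3*, a repressor of the clock, moved from 1161.3, 1115 and 1164.1 to 2459.7, 2511.2 and 2258.4 (1.07 ± 0.13), and *CIART*, another repressor, from 56, 61.7 and 64.8 to 186.9, 192.7 and 186.6 (1.63 ± 0.21). The falls numbered 0 without DMSO replicate 3 and 1 without abemaciclib replicate 2. Among receptor tyrosine kinases and adaptors 6 of 15 rose and 2 fell, and 4 to 8 rose when single libraries were left out. *MET*, the receptor of hepatocyte growth factor, moved from 233.6, 256.7 and 244.4 to 433.7, 450.6 and 466 (0.88 ± 0.13), and *EGFR* rose by 0.62 ± 0.17. Both fell with *RB1*, by 1.92 and 2.21 (interactions 2.80 and 2.83, DESeq2 adjusted p = 3.24e-25 and 2.47e-23). *FGFR4* fell from 16782.6, 17010.2 and 16882.7 to 9581.8, 9554 and 9553.1 (−0.82 ± 0.04, adjusted p = 1.33e-76), and *ERBB2* fell by 0.51 ± 0.05.

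In the BCL2 family 4 of 15 genes rose (26.7%) and 5 fell (33.3%), beside 14.9% and 15.1% of all tested genes. The falls numbered 3 without DMSO replicate 2 or 3 and 2 without abemaciclib replicate 1. *PMAIP1*, the BH3-only protein NOXA, rose by 1.03 ± 0.12 and its main binding partner *MCL1* by 0.38 ± 0.04. Lipid genes stayed closer to 0. Sterol synthesis and uptake genes rose in 5 of 26 cases (19.2%) and fell in 6 (23.1%), with fold changes within −0.33 to 0.40. These shares were near those over all tested genes. Their rises numbered 3 without DMSO replicate 1, 2 without DMSO replicate 3 and 3 without abemaciclib replicate 2, and their falls 11 without sgControl DMSO replicate 1. Fatty acid synthesis genes rose in 2 of 12 cases (16.7%, and 1 without DMSO or abemaciclib replicate 3) and fell in 3 (25%). Of 6 cholesterol export genes none rose and 3 fell, and 1 rose without abemaciclib replicate 3. *GPAM*, the first enzyme of glycerolipid synthesis, fell by 0.82 ± 0.14.

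Several of the largest changes fell outside the lists. *NPC1L1*, a sterol transporter of the gut (chromosome 7, positions 44512535 to 44541330), moved from 54.6, 46.3 and 44.3 to 456.4, 420.1 and 403.5, an 8.85-fold increase (3.15 ± 0.20, DESeq2 adjusted p = 3.54e-54). With *RB1* its levels were 6.5, 4.4 and 8.8 normalized counts in DMSO and 0, 0.9 and 4.4 in abemaciclib. The fitted change of −1.86 there and the interaction of 5.01 (DESeq2 adjusted p = 6.84e-12) rest on these few counts. *NOS3*, endothelial nitric oxide synthase, moved from 60.1, 49.6 and 51.2 to 280.9, 286.4 and 275.4 (2.40 ± 0.21; with *RB1* −0.68, interaction 3.07). *CD22*, a lectin of B cells, rose by 2.72 ± 0.27, and *CLEC7A*, the beta-glucan receptor, by 2.43 ± 0.29. On the falling side *BCAS1*, a gene amplified in breast cancer, moved from 3923.8, 3856.2 and 3901.5 to 1148.3, 1218.2 and 1250.8 (−1.69 ± 0.05; with *RB1* −0.09, interaction −1.60). *RFLNA*, a filamin-binding protein, fell by 2.14 ± 0.12 (interaction −2.07), and *CLCA2*, a chloride channel regulator, *CEACAM6*, an adhesion molecule, and *KIF26B*, a kinesin, fell by 1.83, 1.95 and 1.81.

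Of the 5571 genes called in the knockout, 2964 (53.2%) were called in the same direction with *RB1*, 1265 (22.7%) in the opposite direction and 1342 (24.1%) in neither. Over all genes tested with *RB1* 25% rose and 24.8% fell, so the opposite calls were near that share. The response itself differed from that with *RB1* for 3512 of the 5571 (63%). The sign was opposite for 1808, the response with *RB1* larger for 1402 and smaller for 302. Equivalence within a log2 margin of 0.5 was tested for 4857 called genes and passed for 30.6%, 1487 genes, of which 1055 were also called in the same direction. Neither test passed for 898 genes. Over all 20932 genes tested for the interaction, 4417 responses were higher (21.1%) and 4251 lower (20.3%) without *RB1*. With size factors set by total counts, that split was 5467 and 3098.

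Of the 557 genes raised at least 2-fold, 282 (50.6%) were called in the same direction with *RB1*, beside 25% of all genes that rose there. The interaction test passed for 283 (50.8%), the equivalence test for 12 (75 at a margin of 1) and neither for 262. Of the 148 lowered, 75 (50.7%) were called in the same direction, beside 24.8% of all genes that fell with *RB1*. The interaction test passed for 82 (55.4%), the equivalence test for 6 (21 at a margin of 1) and neither for 61. The largest changes among genes that passed the equivalence test, with the same limits on counts and overlap, were those of *LETMD1*, a mitochondrial membrane protein (1.45, with *RB1* 1.36), *TRIB1*, a pseudokinase (1.44 and 1.53), the histone gene *H2AC6* (1.42 and 1.52), *OPTN*, and *PCDH19*, a protocadherin (−1.44 and −1.49). The genes furthest apart among those called in opposite directions, with these limits, were close to or at 0 in abemaciclib with *RB1*. *FAM20C*, a secretory pathway kinase, moved from 1177.7, 1183.3 and 1243.7 to 1432.6, 1450.9 and 1369.8 in the knockout (0.24 ± 0.08, DESeq2 adjusted p = 0.0152), and from a mean of 214.6 to 0.6 with *RB1*. *C1QL1*, a secreted synaptic protein, moved from 621.6, 699.6 and 665 to 1450.7, 1379.3 and 1376.8 in the knockout and from a mean of 590.8 to 7.2 with *RB1*. *MYO3A*, *SPSB4* and *FOXI3* rose by 0.70, 0.73 and 0.54 in the knockout and stood at means of 2.1, 1.2 and 0 in abemaciclib with *RB1*, from 296.9, 165.3 and 23.7. The call of *FAM20C* in the knockout was lost without replicate 1 or 2 of either knockout group (adjusted p = 0.0802 to 0.0959), and that of *FOXI3* without any single knockout library or sgControl DMSO replicate 2 (adjusted p = 0.0505 to 0.253). With values this low in 1 group the fitted interaction is not a bound on the difference.

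**Figure D5:**
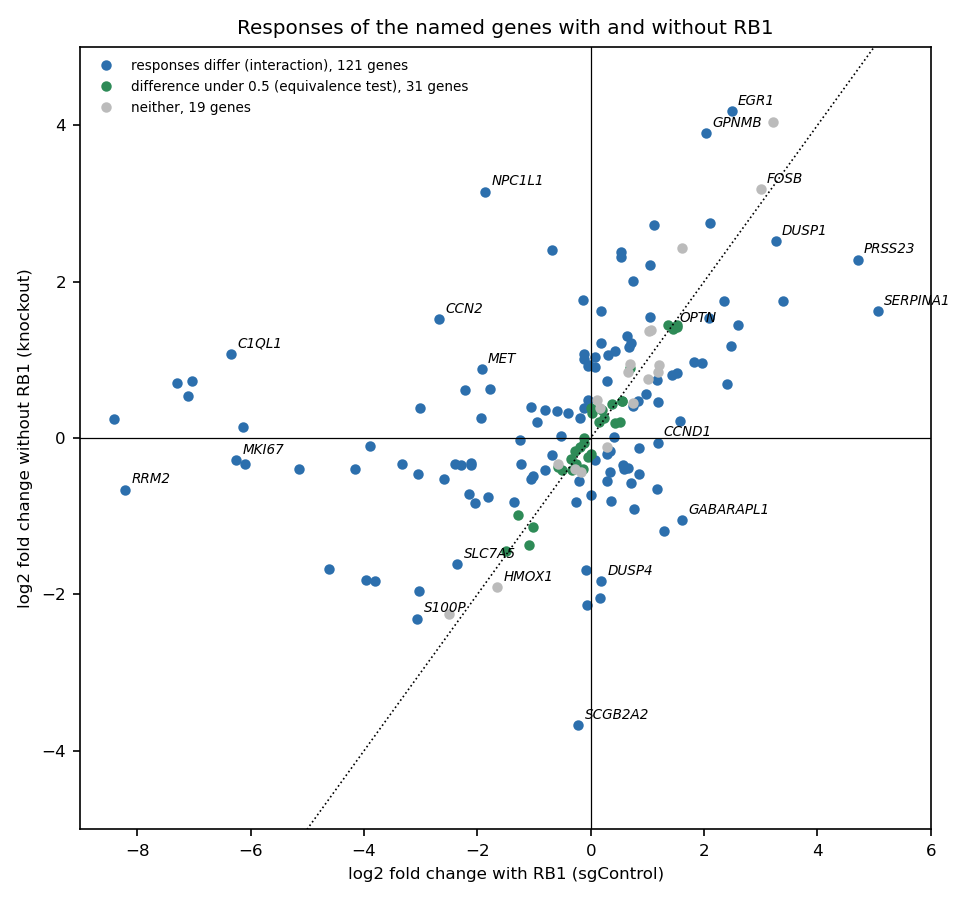
Log2 fold change of abemaciclib against DMSO with *RB1* (horizontal axis) and without it (vertical axis) for the 171 genes named by rule, in blue where the interaction and not the equivalence test passed (121), in green where the equivalence test passed (31) and in grey where neither did (19); the dotted line marks equal responses. *GPNMB* lies above the line at 2.03 and 3.90, and *SCGB2A2* below it at −0.22 and −3.67.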

How the data were processed

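RNA sequencing counts of 12 libraries were used. The authors trimmed reads with BBDuk and deposited raw read counts per gene. The submitters' processing notes name STAR 2.7.5b, featureCounts 2.0.1 and hg38, and the study's methods name a GENCODE annotation. The labels describe a directional whole-transcript kit and the study's general methods a 3′ kit, and strand and multimapping settings are not given in the sources used here, so genes that overlap or are near-identical copies may share reads (49 of the 170 named genes with a position overlap a gene on their strand, 94 on the other). The 44 rows without a gene name held 0% of counts.

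All 60612 named rows entered 1 DESeq2 1.42.0 model (R 4.3.3) over 12 libraries with group as the term, median-of-ratios size factors, two-sided Wald tests and Benjamini-Hochberg adjustment (threshold 0.05, independent filtering on). The tool, the size factors and the threshold follow the study's methods. Contrasts were abemaciclib against DMSO in knockout and in sgControl cells, their difference (interaction), and an equivalence test of the difference at a log2 margin of 0.5. The study describes its RNA sequencing replicates as biologically independent. Standard errors and p-values rest on 1 dispersion per gene estimated over all 12 libraries, so the spread of the sgControl libraries enters those of the knockout response. Library totals are given with the results.

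Members and gene lists were chosen with earlier results of these data known. Genes were named by rule: the 12 highest and 12 lowest fold changes among called genes with a mean of at least 100 normalized counts and no overlap between groups, up to 4 such members per list (and per role for the lysosome, immediate early and interferon-stimulated lists), the 5 largest equivalent and 5 largest opposite changes, and a few genes of the pathways. Other list members given with values, among them *EGR2*, *ZFP36*, *ATF3*, *FOSL1*, *IER3*, *GAA*, *CTSS*, *CTSD*, *FLCN*, *FNIP1*, *FNIP2*, *SQSTM1*, *ISG15*, *RSAD2*, *CIITA*, *B2M*, the *PSMB* and *PSME* genes, *ICAM1*, *SOD2*, *SLC3A2*, *CCNE1*, *AZGP1*, *MGP*, *CLU* and *ERBB2*, were chosen after their values were seen. A few genes of the lists are not reported here by name. Alternatives were edgeR 4.0.16 with TMM factors, the knockout libraries alone, total-count factors with and without mitochondrial genes, 2 count filters, a replicate block, each library left out, and an equivalence margin of 1. The models were tested on simulated data over 32270 genes. The changed genes were drawn from those with a mean of at least 100 normalized counts, and only the treated knockout responded. Of 100 genes changed by 1 on the log2 scale, DESeq2 recovered 100% in the response without *RB1* and 95% in the interaction. Among the calls 25 of 225 and 13 of 208 were unchanged genes. Recovery of smaller changes or of genes with lower counts was not tested. Promoters (RefSeq GRCh38.p14) were searched on both strands. Figures were drawn with matplotlib 3.10.9.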

Additional observations from a re-analysis of the deposited data

Results flagged for a closer look

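All results here are differences between the response to abemaciclib with and without *RB1*, each called by the DESeq2 interaction test (adjusted p under 0.05). A positive value means a higher log2 fold change without *RB1*. The interaction was called higher for 4417 genes (21.1% of 20932 tested) and lower for 4251 (20.3%).

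Among genes called in opposite directions with a mean of at least 100 normalized counts, the furthest apart were genes near or at 0 counts in abemaciclib with *RB1*: *FAM20C* at 8.65, *MYO3A* at 8.00, *SPSB4* at 7.77, *FOXI3* at 7.65 and *C1QL1* at 7.43. For all but *C1QL1* these fitted values rest on at most a few counts in those libraries and are no bound. *RRM2*, which fell with and without *RB1*, differed by 7.55.

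Responses were also higher without *RB1* for the transporter *NPC1L1* (5.01), *CCN2* (4.19), *NOS3* (3.07) and the receptors *EGFR* (2.83) and *MET* (2.80). *NPC1L1* had few counts with *RB1* in either treatment. The same direction held for the immunoproteasome genes *PSMB9* (2.53) and *PSMB8* (1.58) and the interferon-stimulated genes *UBE2L6* (1.90) and *DTX3L* (1.13). It also held for the lysosome-linked genes *GPNMB* (1.87) and *RRAGD* (0.66) and the early genes *EGR1* (1.69) and *JUN* (0.64). *CXCL12* (1.16), *PGR* (0.76) and *SLC7A5* (0.74) were higher as well.

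They were lower without *RB1* for the secreted proteins *SCGB2A2* (−3.46), *SERPINA1* (−3.45) and *PRSS23* (−2.43), the lysosome and autophagy genes *GABARAPL1* (−2.66), *SLC29A3* (−1.67), *ACP2* (−1.30), *PPT1* (−1.17) and *NEU1* (−0.86), the phosphatases *DUSP4* (−2.02) and *DUSP1* (−0.74), the chaperone pathway genes *HERPUD1* (−1.31) and *HSPA5* (−0.84), and for *RFLNA* (−2.07) and *BCAS1* (−1.60).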

How the results depend on the processing

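Of the 5571 genes called in the knockout, none was called in the opposite direction under any of 19 alternatives, and 4247 to 5549 kept their call in the same direction when single libraries were left out. The fewest were kept without DMSO replicate 2. The edgeR quasi-likelihood test called 2768 genes higher and 2913 lower, and 4511 and 4331 in the interaction. A DESeq2 model of the 6 knockout libraries alone called 3121 higher and 3595 lower. Total-count factors gave 2626 and 2622, with a median log2 fold change of 0.0208, and those without mitochondrial genes 3080 and 2268, with a median of 0.0535 (interaction 5198 and 3378). With an equivalence margin of 1 in place of 0.5, 3538 called genes passed. With the replicate block 2620 genes were higher and 2761 lower, and 4314 and 4201 in the interaction. The replicate numbers did not pair the samples: the deviations of same-numbered DMSO and abemaciclib libraries correlated at −0.0285, −0.0878 and 0.0269. Of the 156 named genes called in the knockout 13 lost their call under some alternative and 0 reversed. Among them were *FOXI3*, *FAM20C*, *MYO3A*, *VCL*, *RBL1*, *ATP6V1H*, *FAS*, *HSPH1*, *BMF*, *HLF*, *STARD4* and *PFKFB4*. *MYO3A* lost it with the block alone (adjusted p = 0.114). Depth limits genes such as *RSAD2* and the interferon ligands, with few or no counts in DMSO.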

Other observations

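Genes were also grouped by shared symbol stem, after the data had been seen, in 352 families with at least 6 tested protein-coding members, beside the 14.9% of all genes that rose and 15.1% that fell. The families given were picked for their counts and stand for no wider group. With abemaciclib in the knockout 12 of 14 *PSMD* genes (regulatory particle of the proteasome), 6 of 8 *CCT* genes (the cytosolic chaperonin), 7 of 11 *SRSF* genes (splicing factors) and 25 of 48 *MRPL* genes (mitochondrial ribosome) fell and none rose, whereas of 11 *CNOT* genes (mRNA deadenylation) 2 rose and 1 fell and of 12 *HSPA* genes (chaperones) 2 rose and 2 fell. With *RB1*, 13 *PSMD*, 9 *SRSF* and 33 *MRPL* genes fell.

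Of 29 *COL* genes (collagens) 11 rose, of 11 *CLDN* genes (claudins of tight junctions) 6, of 9 *CDH* genes (cadherins) 5 and of 6 *GPC* genes (glypicans) 4, and none fell, whereas of 17 *TSPAN* genes (tetraspanins) 4 rose and 4 fell, of 10 *MMP* genes (matrix proteases) 1 rose and 3 fell, and none of 15 *PCDHB* genes (protocadherins) was called. *CLDN1* rose by 1.20 ± 0.07. Of 12 *PARP* genes 10 rose and 2 fell, and of 440 *ZNF* genes 119 rose and 21 fell, with a median of 0.14.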
